A study of Mus musculus with 12 samples.

Results

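The genes of sterol and fatty acid synthesis, with the SREBP factors that control them, were followed in whole mouse skin. They were taken from a fixed list of 32 gene names: enzymes of the sterol pathway, regulators and a carrier of sterols, and enzymes that make, desaturate and elongate fatty acids. Of these, 31 had a probe set annotated to that gene alone, among 18193 genes measured on the array. *Acat2*, which condenses acetyl-CoA at the head of the sterol pathway, was not analysed here.

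The skin came from *Ahr*-/- mice (labelled AhR KO) and from *Ahr*+/- littermate controls (labelled AhR HET), either untreated on day 0 or on day 2 of treatment with imiquimod (IMQ), and each of the 4 groups had 3 arrays. The aryl hydrocarbon receptor (AhR) is a transcription factor switched on by small molecules from the environment, the diet and metabolism, and IMQ, a Toll-like receptor agonist, gives a psoriasis-like inflammation when it is rubbed on as a cream. The *Ahr*-/- mice lacked the receptor in every cell of the body and not in the skin alone. All 4 groups carried at least 1 disrupted *Ahr* allele, as the controls were heterozygous. The untreated mice received no cream, so the drug, the cream base and the handling cannot be told apart. The titles give the 3 arrays of a group a number and do not say whether each came from a separate mouse. The arrays were taken as separate biological samples, and ages were not given in the sources used here.

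Sterols are built from acetyl-CoA through mevalonate and isoprenoid units to squalene, which is closed into lanosterol and trimmed to cholesterol. Fatty acids are built from the same acetyl-CoA by a carboxylase and a synthase, then elongated and desaturated. Both routes are under SREBP transcription factors, membrane proteins that Insig proteins hold back when sterol is plentiful. SREBP2, the product of *Srebf2*, mainly drives the sterol enzymes, and the main product of *Srebf1* mainly drives the fatty acid enzymes. In skin, the epidermis uses cholesterol, fatty acids and ceramides for its barrier, and sebaceous glands and fat cells make lipid in bulk.

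Expression was read as a log2 signal, so that a difference of 1 is a 2-fold change. Signals of different genes come from different probes and were not set against each other. The median signal over genes ran from 7.38 to 7.56 in the 12 arrays. As the array is a 3' design, the log2 difference between 3' and 5' probe sets for *Gapdh* gives a measure of how complete the RNA is. It reached 1.17 in replicate 1 and 1.52 in replicate 2 of *Ahr*-/- IMQ skin, and lay between 0.14 and 0.53 in the other 10 arrays, *Ahr*-/- IMQ replicate 3 included (0.28). Of the untreated arrays, *Ahr*+/- replicate 2 stood apart, with a mean signal of 11.99 over 15 hair follicle growth genes, against 7.98 and 8.44 in the other *Ahr*+/- untreated arrays. The untreated *Ahr*-/- arrays read 6.46, 7.25 and 6.19 for these genes, below every untreated *Ahr*+/- array. The probe set of *Ahr* itself read 10.11 to 11.30 in untreated *Ahr*+/- skin and 11.29 to 11.44 in untreated *Ahr*-/- skin. A probe set outside the disrupted part of the gene checks nothing, and where this one lies was not tested.

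A gene was said to rise or fall where it passed an adjusted p of 0.05 in limma, adjusted by Benjamini-Hochberg over all 18193 genes, with a change of at least 1.5-fold (0.58 on the log2 scale). With 3 arrays a group, the number of arrays limits the precision of every value. In whole skin, fewer cells of a type and less RNA per cell cannot be told apart. The *Ahr*-/- IMQ arrays enter the IMQ comparison in *Ahr*-/- skin, the comparison of genotypes on day 2 and the difference in response, so these are not independent of each other.

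The stretches before the transcription starts of the sterol enzymes *Hmgcs1*, *Cyp51* and *Msmo1* and the fatty acid enzyme *Acss2* are shown as a description. Any part of promoter letters in the changes of the members was not tested. RefSeq promoters (build GRCm38.p6, 250 bases before to 50 bases after each start) were found for 25 of the 32 members. Both strands were searched for the SREBP-binding sterol regulatory element TCACNCCAC, for CCAAT, bound by the SREBP partner NF-Y, for GGGCGG, bound by the partner Sp1, and for GCGTG, the core letters bound by AhR. In the lines below, capitals mark TCACNCCAC and CCAAT on either strand (read as ATTGG where they lie on the other strand), and the sequences run 5' to 3' along the gene through the 250 bases before its start.
*Hmgcs1*, chr13:119690101-119690350, plus strand: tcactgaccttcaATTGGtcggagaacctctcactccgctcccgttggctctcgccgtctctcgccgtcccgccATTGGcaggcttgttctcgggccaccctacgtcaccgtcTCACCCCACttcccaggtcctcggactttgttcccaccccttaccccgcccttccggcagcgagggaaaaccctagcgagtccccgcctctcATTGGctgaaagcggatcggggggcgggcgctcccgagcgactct
*Cyp51*, chr5:4104698-4104947, minus strand: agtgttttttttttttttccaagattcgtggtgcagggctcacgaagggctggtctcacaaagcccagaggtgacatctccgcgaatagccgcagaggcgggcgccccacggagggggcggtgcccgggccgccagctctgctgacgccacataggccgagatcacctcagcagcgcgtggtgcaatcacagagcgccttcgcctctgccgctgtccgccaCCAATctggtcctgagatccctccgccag
*Msmo1*, chr8:64733579-64733828, minus strand: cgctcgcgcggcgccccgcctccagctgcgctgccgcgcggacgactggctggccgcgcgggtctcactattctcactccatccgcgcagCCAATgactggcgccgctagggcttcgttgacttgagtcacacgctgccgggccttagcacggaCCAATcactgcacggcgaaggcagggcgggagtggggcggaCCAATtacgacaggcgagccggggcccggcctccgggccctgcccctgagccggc
*Acss2*, chr2:155517793-155518042, plus strand: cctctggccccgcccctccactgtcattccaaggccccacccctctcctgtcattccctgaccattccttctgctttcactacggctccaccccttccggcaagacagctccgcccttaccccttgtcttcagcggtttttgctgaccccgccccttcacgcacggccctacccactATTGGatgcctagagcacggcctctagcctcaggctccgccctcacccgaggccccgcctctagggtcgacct
*Hmgcs1* was the 1 member whose promoter held TCACNCCAC in these exact letters, its first base lying at position -137 from the start, against 1.46% of the 14452 genes on the arrays with a promoter. CCAAT was present for 21 of the 25 members (84.0%), including 13 of 14 sterol enzymes and 5 of 8 fatty acid enzymes, against 42.0% of genes on the arrays. GGGCGG was present for 20 members (80.0%), against 57.3%, and GCGTG for 16 (64.0%), against 47.8%. Over all 27025 genes with a promoter the shares were 1.44% for TCACNCCAC, 41.1% for CCAAT, 38.2% for GGGCGG and 35.2% for GCGTG. A gene with several promoters was counted where any of them held the letters, and 1 match overlapped a match of another motif. A match of letters is a description, not a binding site. *Fdps*, *Fdft1*, *Sqle*, *Stard4*, *Scd1*, *Scd2* and *Fads1* were without an entry.

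In *Ahr*+/- skin treated for 2 days with IMQ, nearly all sterol enzymes rose, and no fatty acid enzyme passed the test. Of 16 sterol enzymes, 15 rose, with a median difference of 1.16 over the 16, against -0.01 over all genes. Of 11 fatty acid enzymes, none rose or fell, with a median difference of -0.05. Over all 31 members, 16 rose and 0 fell, whereas 5.22% of all genes rose and 3.83% fell in this comparison. Every treated array lay above every untreated one for 54.8% of members and 15.4% of all genes, and below for 6.45% and 14.4%.

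**Figure D1:**
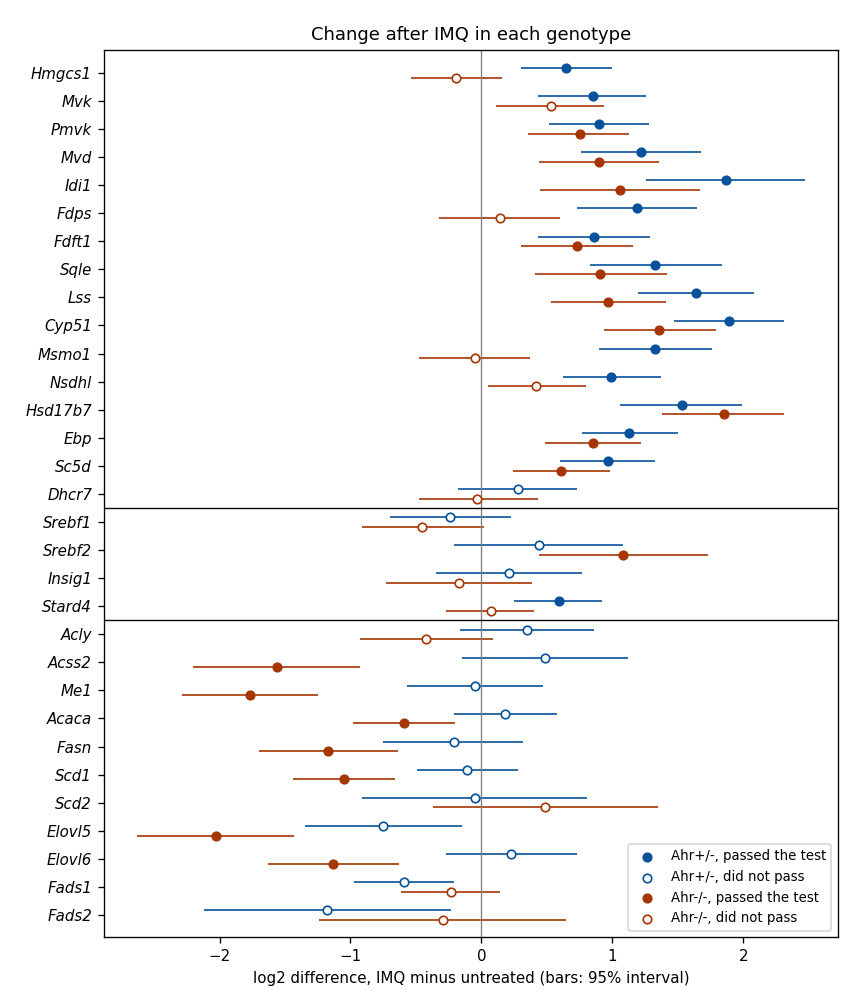
Change with IMQ on the log2 scale, treated minus untreated (horizontal axis), for each of the 31 members (rows), in *Ahr*+/- skin (blue) and *Ahr*-/- skin (brown), with 95% intervals from limma; filled points passed the test. In *Ahr*+/- skin 15 of the 16 sterol enzymes at the top are filled on the right, and in *Ahr*-/- skin 7 of the 11 fatty acid enzymes at the bottom are filled on the left.

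The largest rise belonged to *Cyp51*, which removes a methyl group from lanosterol. Its signal was 9.17, 9.59 and 9.07 in untreated *Ahr*+/- skin and 11.16, 11.15 and 11.19 after IMQ. The treated arrays lay within 0.04 of each other and well above every untreated array, a difference of 1.89 ± 0.19 (SE) or 3.7-fold (limma adjusted p = 9.56e-05). *Idi1*, the isomerase that prepares the isoprenoid building block, read 10.35, 10.96 and 10.23 before and 12.33, 12.33 and 12.47 after IMQ. Its groups did not overlap, and it rose by 1.87 ± 0.28 (adjusted p = 0.00142).

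*Lss*, which closes squalene epoxide into lanosterol, read 8.79, 8.67 and 8.13 untreated and 10.16, 10.23 and 10.11 after IMQ. It rose by 1.64 ± 0.20 (adjusted p = 0.000421). *Hsd17b7*, a ketoreductase of the later pathway, went from 8.99, 9.24 and 9.09 to 10.85, 10.63 and 10.43, a rise of 1.53 ± 0.21 (adjusted p = 0.000923). For both genes the lowest treated array stood above the highest untreated array. *Msmo1*, a C4-methylsterol oxidase, went from 11.17, 10.79 and 10.76 to 12.18, 12.28 and 12.25, a rise of 1.33 ± 0.20 (adjusted p = 0.00131).

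*Sqle*, squalene epoxidase and a step-limiting enzyme of the pathway, read 9.93, 10.73 and 9.90 in untreated *Ahr*+/- skin and 11.39, 11.58 and 11.59 after IMQ. The high untreated value was that of replicate 2, the array with high hair follicle genes. *Sqle* rose by 1.33 ± 0.23 (adjusted p = 0.00384), and by 1.61 without that array. The other rises were *Mvd* (1.22), *Fdps* (1.19), *Ebp* (1.13), *Nsdhl* (0.99), *Sc5d* (0.97), *Pmvk* (0.90), *Fdft1* (0.86), *Mvk* (0.85) and *Hmgcs1* (0.65). They span the pathway from HMG-CoA synthase (*Hmgcs1*) and the mevalonate kinases (*Mvk*, *Pmvk*) to the late sterol isomerase and desaturase (*Ebp*, *Sc5d*). *Dhcr7*, which makes cholesterol from its last precursor, was the 1 sterol enzyme without a call, with a difference of 0.28 and a 95% interval from -0.18 to 0.73.

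Of these, *Hmgcs1*, *Mvk* and *Fdft1* missed the threshold when single arrays were left out. The adjusted p of *Hmgcs1* reached 0.0955 and stayed under 0.05 only without untreated replicate 2, that of *Mvk* reached 0.071 (without IMQ replicate 2 or 3 or untreated replicate 3) and that of *Fdft1* reached 0.0588 (without IMQ replicate 2 or 3). Other probe sets of a gene did not always move with the one used: both other sets for *Sc5d* lay below 0 (-0.55 and -0.11), as did 1 of 3 for *Fdft1* (-0.26). Of the 23 other probe sets of members that rose, 20 had the same sign.

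Of the 4 regulators and carriers in *Ahr*+/- skin, 1 rose. *Srebf2* read 8.21, 8.69 and 8.24 untreated and 8.74, 8.68 and 9.02 after IMQ, overlapping groups with a difference of 0.44 (95% interval -0.21 to 1.08). *Srebf1* read 9.99, 10.12 and 10.81 untreated and 9.84, 10.21 and 10.16 after IMQ, a difference of -0.24 (95% interval -0.70 to 0.23). *Insig1*, an SREBP brake that is itself an SREBP target, read 8.95, 9.89 and 9.11 and then 9.56, 9.56 and 9.45, a difference of 0.21 (95% interval -0.35 to 0.77). None of these passed the test, and in each the groups overlapped. *Stard4*, a carrier of cholesterol between membranes, had other probe sets at 1.75 and 0.35 (adjusted p = 0.000638 and 0.343 over all probe sets). By the set used it rose by 0.59 (adjusted p = 0.0333), just past the fold needed. It missed the threshold without any of IMQ replicates 1 to 3 or untreated replicates 1 and 3, with an adjusted p of up to 0.123.

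Among the fatty acid enzymes of *Ahr*+/- skin, *Fasn*, the fatty acid synthase, read 10.85, 10.90 and 11.54 untreated and 10.60, 10.99 and 11.06 after IMQ. *Acaca*, the carboxylase that limits fatty acid synthesis, read 9.08, 9.02 and 9.44 and then 9.24, 9.44 and 9.40. *Scd1*, the main stearoyl-CoA desaturase of skin, read 14.00, 13.42 and 13.93 and then 13.43, 13.79 and 13.81. In all 3 the groups overlapped, with differences of -0.21, 0.18 and -0.11. A second, dimmer probe set for *Scd1* gave 1.52 (adjusted p = 0.000964 over all probe sets), so the 2 sets disagree for this gene. The desaturases *Fads1* and *Fads2* lay lower in every treated array than in any untreated one, with differences of -0.59 and -1.18 that did not pass (adjusted p = 0.0511 and 0.111). *Fads2* was 8.13 in the untreated array with high hair follicle genes and 6.01 to 6.2 in the other untreated *Ahr*+/- arrays.

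In *Ahr*-/- skin, IMQ again raised sterol enzymes, while fatty acid enzymes fell. Of the 16 sterol enzymes, 10 rose and 0 fell, with a median of 0.74. Of the 11 fatty acid enzymes, 7 fell and 0 rose, with a median of -1.05, against 0.07 over all genes. Counting *Srebf2*, 11 members rose and 7 fell, in a comparison in which 10.6% of all genes rose and 12.1% fell. Treated arrays all lay above the untreated ones for 35.5% of members and 21.7% of all genes, and below for 25.8% and 21.1%.

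*Cyp51* read 9.18, 8.80 and 9.56 in untreated *Ahr*-/- skin and 10.69, 10.39 and 10.54 after IMQ, a rise of 1.36 ± 0.19 (adjusted p = 0.000333). *Hsd17b7* had other probe sets at 1.12, 1.32 and 0.40, below the rise of *Cyp51*. By the set used it gave the largest rise, from 8.84, 8.79 and 9.44 to 11.25, 10.83 and 10.53, or 1.85 ± 0.21 (adjusted p = 8.12e-05). Of the members that rose, these were the ones that passed with *Ahr*-/- IMQ replicate 3 as the only treated array, the one with a low *Gapdh* difference, when that array is assumed to vary like the other groups. *Lss* went from 8.84, 8.44 and 8.43 to 9.90, 9.38 and 9.35, and rose by 0.97 (adjusted p = 0.00379). *Idi1* went from 10.31, 9.82 and 11.09 to 11.66, 11.20 and 11.54, and rose by 1.06 (adjusted p = 0.0141). *Sqle* went from 10.05, 9.72 and 10.41 to 11.21, 10.78 and 10.92, and rose by 0.91 (adjusted p = 0.012). In all 5 genes every treated array was above every untreated one.

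*Mvd* (0.90), *Ebp* (0.85), *Pmvk* (0.75), *Fdft1* (0.73) and *Sc5d* (0.61) also rose. Another probe set of *Sc5d* fell by 0.74 (adjusted p = 0.00828), and 1 of *Lss* gave -0.29. Of the 23 other probe sets of members that rose or fell in *Ahr*-/- skin, 18 had the same sign as the set used, the others belonging to *Lss*, *Sc5d*, *Acaca* and *Scd1*. Leaving out single arrays ended the calls of *Idi1*, *Fdft1*, *Sqle* and *Sc5d*, with an adjusted p of up to 0.0641, 0.0706, 0.059 and 0.0872. The arrays concerned were IMQ replicate 1 and untreated replicate 2 for each of the 4, untreated replicate 1 for all but *Sqle*, and IMQ replicate 2 for *Fdft1*. The count of members that rose was 6 without IMQ replicate 1, 7 without untreated replicate 1, 6 without untreated replicate 2 and 2 with IMQ replicate 3 as the only treated array.

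Of the sterol enzymes, 10 rose in both genotypes and 5 rose in *Ahr*+/- skin without a call in *Ahr*-/- skin. Those 5 were *Hmgcs1* (-0.19 in *Ahr*-/- skin), *Msmo1* (-0.05), *Fdps* (0.14), *Nsdhl* (0.42) and *Mvk* (0.53). *Hmgcs1* read 12.49, 12.33 and 12.48 in untreated *Ahr*-/- skin and 12.37, 11.99 and 12.36 after IMQ. *Msmo1* read 11.47, 10.78 and 11.37 and then 11.35, 10.88 and 11.23. *Fdps* read 10.29, 9.87 and 10.61 and then 10.48, 10.06 and 10.65. In these 3 genes the treated and untreated arrays of *Ahr*-/- skin overlapped.

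*Srebf2* rose by 1.08 in *Ahr*-/- skin (adjusted p = 0.0168), but its arrays were split. It read 8.16, 8.21 and 8.35 untreated and 9.84, 9.69 and 8.43 after IMQ, the high values being those of the pair of arrays with a high *Gapdh* 3' to 5' difference. With replicate 3 as the only treated array the difference was 0.20 (adjusted p = 0.67). Without treated replicate 1 or 2 it was 0.82 and 0.90 (adjusted p = 0.0772 and 0.0763), without untreated replicate 1 or 2 it was 1.04 and 1.07 (adjusted p = 0.0567 and 0.0512), and a second probe set gave 0.24 (adjusted p = 0.38). *Srebf1* read 10.18, 10.18 and 10.64 untreated and 9.72, 9.97 and 9.97 after IMQ, every treated array below every untreated one, with a difference of -0.45 that did not pass (adjusted p = 0.144). *Insig1* read 9.38, 8.94 and 9.83 and then 9.01, 9.49 and 9.14, and *Stard4* differed by 0.07. The probe sets of *Stard4* disagreed in *Ahr*-/- skin, where the 2 others gave 1.37 and -0.65 (adjusted p = 0.00106 and 0.0438).

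**Figure D2:**
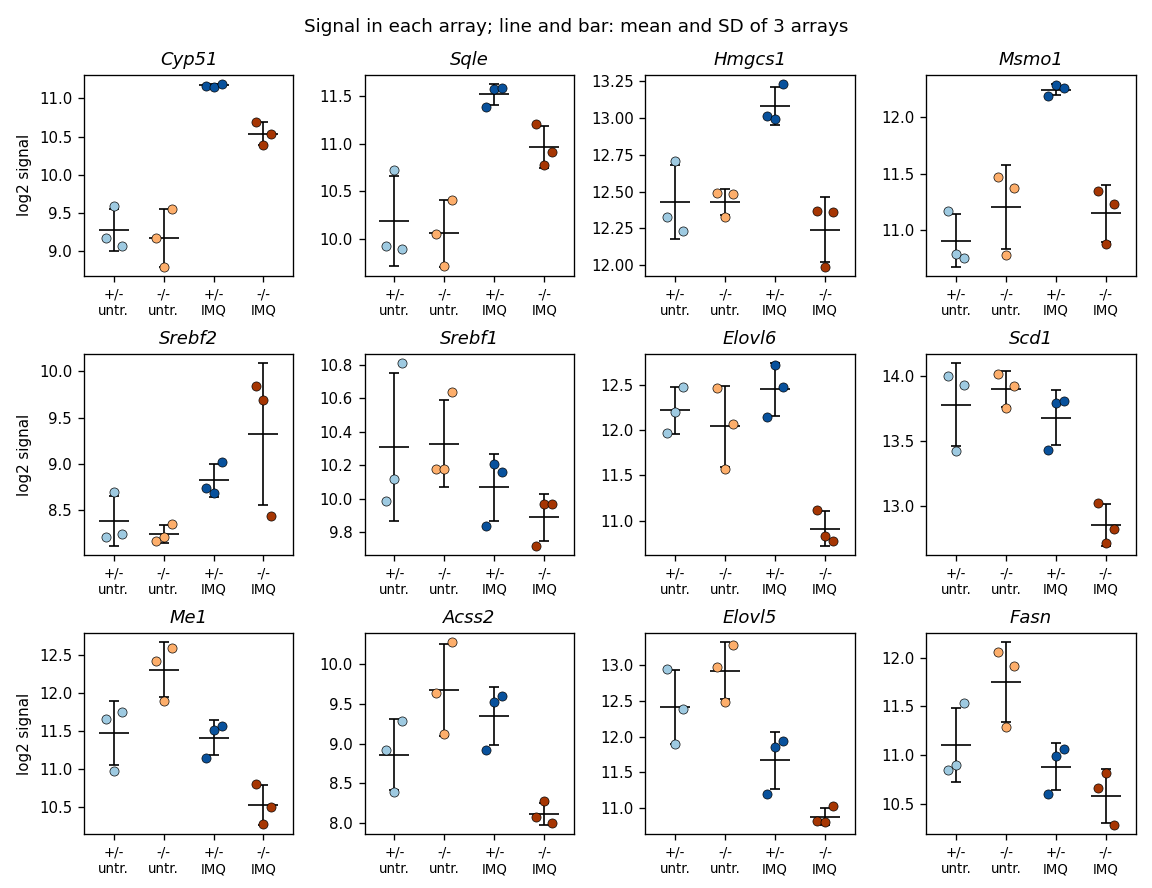
Log2 signal (vertical axis) of 12 members in each of the 12 arrays, by genotype (+/- or -/-) and treatment (untr., untreated); the line and bar give the mean and SD of 3 arrays, and each panel has its own vertical scale. *Cyp51* was higher after IMQ in every array of both genotypes, *Msmo1* and *Hmgcs1* were highest in the 3 *Ahr*+/- IMQ arrays, and *Elovl6*, *Scd1*, *Me1* and *Acss2* were lowest in the 3 *Ahr*-/- IMQ arrays.

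The largest fall among the members was that of *Elovl5*, an elongase of polyunsaturated fatty acids. In *Ahr*-/- skin it read 12.97, 12.49 and 13.28 untreated and 10.82, 10.80 and 11.03 after IMQ. The gap between the groups was wider than the spread within either, and *Elovl5* fell by 2.03 (SE 0.28), or 4.09-fold (adjusted p = 0.00025). Its other probe set fell by 2.18. In *Ahr*+/- skin *Elovl5* went from 12.95, 11.90 and 12.39 to 11.20, 11.85 and 11.94, overlapping groups with a difference of -0.75 (adjusted p = 0.111).

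*Me1*, malic enzyme, a source of the NADPH that fatty acid synthesis uses, read 12.42, 11.89 and 12.59 untreated and 10.81, 10.29 and 10.51 after IMQ in *Ahr*-/- skin. It fell by 1.77 (SE 0.24; adjusted p = 0.000237). *Acss2*, which activates acetate to acetyl-CoA, read 9.64, 9.12 and 10.28 untreated and 8.07, 8.27 and 8.00 after IMQ. It fell by 1.56 (SE 0.29; adjusted p = 0.00201). For both genes every treated array lay below every untreated one.

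*Fasn* fell by 1.17 in *Ahr*-/- skin, from 12.06, 11.29 and 11.92 to 10.66, 10.82 and 10.28 (adjusted p = 0.00391). *Elovl6*, the elongase that extends palmitate, fell by 1.13, from 12.47, 11.57 and 12.07 to 11.12, 10.83 and 10.77 (adjusted p = 0.00342). *Scd1* fell by 1.05, from 14.02, 13.75 and 13.92 to 13.02, 12.71 and 12.82 (adjusted p = 0.0011). The treated arrays lay below the untreated ones for all 3 genes, though the dimmer *Scd1* probe set gave 0.30 (adjusted p = 0.334). Other probe sets of *Elovl6* gave -2.96 and -1.06 (adjusted p = 0.00308 and 0.024 over all probe sets). *Acaca* fell by 0.59, from 10.09, 9.49 and 9.92 to 9.23, 9.45 and 9.06 (adjusted p = 0.0286). That call was lost without treated replicate 1 or 3 or untreated replicate 1 or 3 (adjusted p up to 0.127).

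Without a call in either genotype were *Acly* (0.35 in *Ahr*+/- and -0.42 in *Ahr*-/- skin), *Scd2*, *Fads1* and *Fads2*. *Acly* makes cytosolic acetyl-CoA from citrate and feeds both routes. With replicate 3 as the only treated array, 4 of the 7 falls in *Ahr*-/- skin passed. *Elovl6*, *Acss2* and *Acaca* did not, at -1.26, -1.68 and -0.77 (adjusted p = 0.0551, 0.0536 and 0.102).

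**Figure D3:**
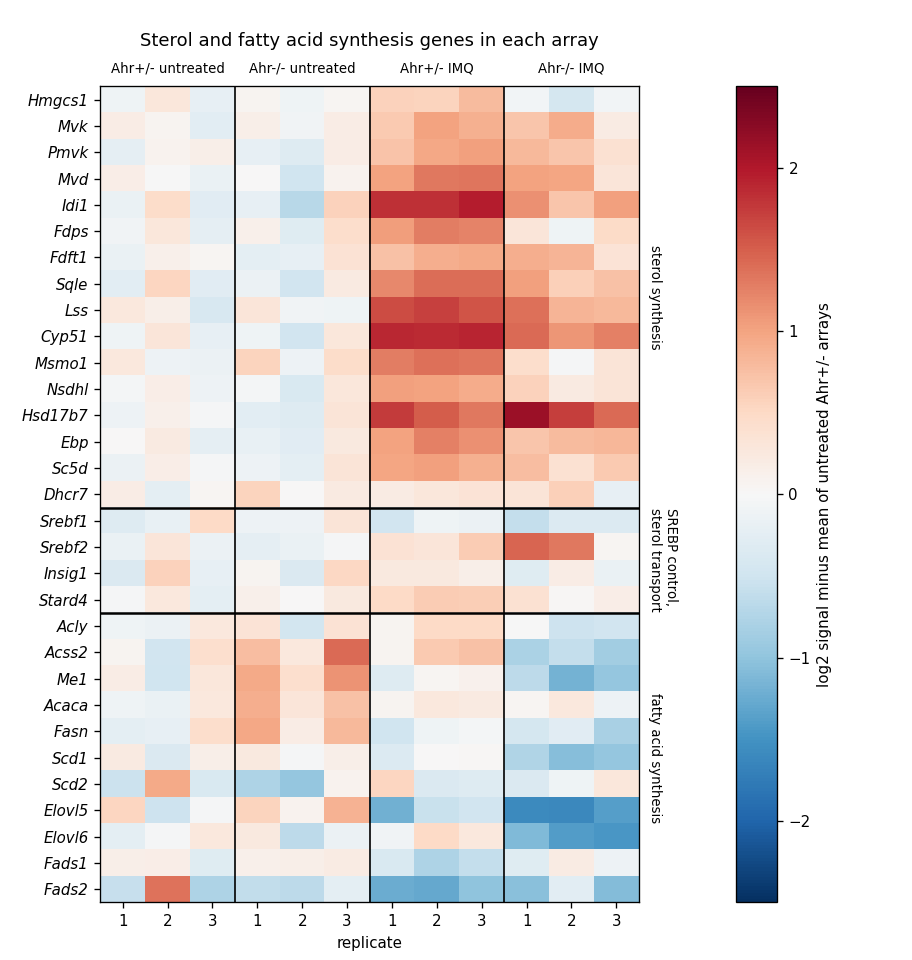
Log2 signal of each of the 31 members (rows) in each of the 12 arrays (columns), as the difference from the mean of the 3 untreated *Ahr*+/- arrays; red is higher and blue lower, and the lines part the groups of arrays and the 3 roles. The sterol enzymes are red in all *Ahr*+/- IMQ arrays, and most fatty acid enzymes are blue in the *Ahr*-/- IMQ arrays, while *Srebf2* is red in 2 of those 3.

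Before treatment the genotypes were not told apart by any member. None of the 31 members passed in either direction between untreated *Ahr*-/- and *Ahr*+/- skin, where 0.0055% of all genes (1 gene) passed, and the median difference was 0.03. At an unadjusted p of 0.05, 4 members passed (12.9%, against 6.49% of all genes). They were *Me1* (0.84), *Acss2* (0.82), *Acaca* (0.66) and *Fasn* (0.65), all higher in *Ahr*-/- skin and with adjusted p from 0.717 to 0.725. *Me1* and *Acaca* were higher in every untreated *Ahr*-/- array than in any untreated *Ahr*+/- array. Such a gap was found for 6.45% of members and 5.03% of all genes. The rank product, the test named in the study's methods, called 0 members here.

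On day 2, most members had a lower signal in *Ahr*-/- skin. Of the 31 differences, 27 lay below 0, with a median of -0.39, against 0.06 over all genes. In this comparison 6 members were lower by the test and 0 higher, where 1.86% of all genes were lower and 2.12% higher. The 6 were 3 sterol enzymes, *Msmo1*, *Fdps* and *Hmgcs1*, and 3 fatty acid enzymes, *Elovl6*, *Acss2* and *Scd1*.

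*Elovl6* differed most, at 12.14, 12.72 and 12.48 in *Ahr*+/- IMQ skin and 11.12, 10.83 and 10.77 in *Ahr*-/- IMQ skin, a difference of -1.54 ± 0.23, or 2.9-fold lower (adjusted p = 0.00337). *Elovl6* was the 1 member whose call held whichever array was left out. Its other probe sets gave -3.42 and -0.99 (adjusted p = 0.00929 and 0.091 over all probe sets). The first of these read 11.08, 11.75 and 11.31 in *Ahr*+/- IMQ skin and 7.4, 6.7 and 9.78 in *Ahr*-/- IMQ skin. Its lowest values were those of replicates 1 and 2, which had a high *Gapdh* difference. *Acss2* read 8.92, 9.52 and 9.6 in *Ahr*+/- IMQ skin, every array above the 8.00 to 8.27 of *Ahr*-/- IMQ skin, a difference of -1.23 (adjusted p = 0.0357). *Scd1* differed by -0.83 (adjusted p = 0.0242), and its second probe set by -0.81. *Fasn* (-0.30) and *Acaca* (-0.12), which fell with IMQ in *Ahr*-/- skin, had overlapping groups on day 2 and did not pass (adjusted p = 0.508 and 0.739). *Me1* (-0.88), *Elovl5* (-0.78), *Acly* (-0.68) and the carrier *Stard4* (-0.39) were lower in every *Ahr*-/- IMQ array without passing (adjusted p from 0.0607 to 0.178). *Fads1* (0.52) was higher in every one, also without passing (adjusted p = 0.115).

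Of the sterol enzymes, *Msmo1* differed by -1.08 ± 0.20 (adjusted p = 0.00993). *Fdps*, which makes farnesyl diphosphate, read 11.22, 11.44 and 11.41 in *Ahr*+/- IMQ skin and differed by -0.96 (adjusted p = 0.0268). *Hmgcs1* read 13.01, 12.99 and 13.23 in *Ahr*+/- IMQ skin and differed by -0.84 (adjusted p = 0.0138). The *Ahr*-/- IMQ arrays of all 3 lay below the lowest *Ahr*+/- IMQ array. *Idi1* (-0.91), *Lss* (-0.63), *Cyp51* (-0.62), *Nsdhl* (-0.61), *Sqle* (-0.55), *Mvd* (-0.46), *Sc5d* (-0.36) and *Ebp* (-0.35) had groups that did not overlap but did not pass (adjusted p from 0.0665 to 0.251). Those of *Hsd17b7* overlapped (0.24), and its other probe sets gave -0.59, -0.63 and -0.06.

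Most of the 6 calls of day 2 were lost when single arrays were left out, while the differences stayed close to those above: over the omissions they ran from -1.69 to -1.40 for *Elovl6*, -1.45 to -1.11 for *Acss2*, -1.18 to -0.95 for *Msmo1*, -1.08 to -0.79 for *Fdps*, -0.95 to -0.76 for *Scd1* and -0.90 to -0.71 for *Hmgcs1*. Without *Ahr*+/- IMQ replicate 2, *Ahr*+/- IMQ replicate 3 or *Ahr*-/- IMQ replicate 2, *Elovl6* alone passed. Without *Ahr*-/- IMQ replicate 1, *Fdps* (-1.0) and *Acss2* (-1.21) no longer passed (adjusted p = 0.062 and 0.0952), and without *Ahr*-/- IMQ replicate 3, *Acss2* (-1.18) no longer passed (adjusted p = 0.0601) and *Srebf2* was called higher (0.95, adjusted p = 0.0126). With *Ahr*-/- IMQ replicate 3 as the only array of its group, which is then assumed to vary like the other groups, 0 members passed, with differences about as large: -1.67 for *Elovl6*, -1.35 for *Acss2*, -1.0 for *Msmo1*, -0.86 for *Scd1*, -0.72 for *Hmgcs1* and -0.71 for *Fdps*. With the *Gapdh* difference as a covariate 0 passed as well, with -1.66, -1.49, -0.89, -0.85, -0.64 and -0.61 for the same genes.

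The difference between the genotypes in their response to IMQ was tested directly as an interaction. It lay below 0 for 26 of 31 members, with a median of -0.52, against 0.05 over all genes. It passed for 3 members, all with a lower response in *Ahr*-/- skin, where 0.786% of all genes had a lower and 0.539% a higher response. *Acss2* differed by -2.05 ± 0.41 (adjusted p = 0.0346), *Me1* by -1.72 ± 0.34 (adjusted p = 0.033) and *Msmo1* by -1.39 ± 0.28 (adjusted p = 0.0346). With all probe sets tested, the other set of *Me1* gave -2.19 (adjusted p = 0.0407), that of *Msmo1* -0.67 (adjusted p = 0.212), and those of *Acss2* -1.64 and -0.37 (adjusted p = 0.0677 and 0.684).

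At an unadjusted p of 0.05, 14 of the 31 passed (45.2%, against 17.5% of all genes), 5 sterol enzymes, *Stard4* and 8 fatty acid enzymes. *Elovl6* (-1.36, adjusted p = 0.0651), *Elovl5* (-1.28, 0.122), *Fdps* (-1.05, 0.103), *Fasn* (-0.96, 0.181), *Scd1* (-0.94, 0.0871) and *Hmgcs1* (-0.85, 0.0899) were among those that failed the correction. For *Cyp51*, *Sqle* and *Hsd17b7* the difference in response was -0.52, -0.42 and 0.32, with 95% intervals from -1.12 to 0.07, -1.14 to 0.30 and -0.34 to 0.98. The other probe sets of *Hsd17b7* gave -0.74, -0.76 and 0.02, so the sets disagree for this gene. The call of *Msmo1* was lost without any of 7 of the 12 arrays, that of *Acss2* without any of 6 and that of *Me1* without any of 5. The differences themselves ran from -1.60 to -1.25 for *Msmo1*, -2.33 to -1.75 for *Acss2* and -1.92 to -1.48 for *Me1* over the omissions. Without *Ahr*+/- IMQ replicate 2 or 3, *Ahr*-/- IMQ replicate 2 or untreated *Ahr*-/- replicate 1 or 3, none of the 3 passed, with an adjusted p of up to 0.108 for *Msmo1*, 0.103 for *Me1* and 0.111 for *Acss2*. Without *Ahr*-/- IMQ replicate 1, *Me1* alone passed, *Msmo1* was at 0.0514 and *Acss2* at 0.0747. *Msmo1* was also lost without untreated *Ahr*+/- replicate 3 (adjusted p = 0.0758), 5 members passed without untreated *Ahr*+/- replicate 1, and *Srebf2* was called higher without *Ahr*-/- IMQ replicate 3 (1.09, adjusted p = 0.0376).

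Genes around the pathway were read from other lists. Of 5 measured sterol enzymes that were not members, *Erg28* (0.91) and *Tm7sf2* (0.62), a sterol reductase, rose in *Ahr*+/- skin, and 0 rose in *Ahr*-/- skin, where *Ggps1*, which makes geranylgeranyl diphosphate, fell by 0.93. *Tm7sf2* was lower in *Ahr*-/- skin on day 2 (-0.80, adjusted p = 0.0224). Of 8 genes of sterol uptake and SREBP processing, *Tmem97*, a sterol-responsive partner of cholesterol trafficking, rose in both genotypes (1.59 and 1.38). *Insig2* fell by 1.55 and the SREBP-cleaving protease *Mbtps1* by 0.62 in *Ahr*-/- skin. Of 9 genes of LXR control, export and esterification, *Lpcat3* rose in *Ahr*+/- skin (0.94), and in *Ahr*-/- skin *Ch25h*, which makes the SREBP inhibitor 25-hydroxycholesterol, rose by 0.99, while *Apoe* fell by 1.43 and *Mylip* by 1.13. *Apoe* and *Mylip* were also lower in *Ahr*-/- skin on day 2 (-1.0 and -0.70).

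Of 17 other genes of fatty acid synthesis and elongation, 5 rose and 0 fell in *Ahr*+/- skin, while *Ahr*-/- skin had 3 rises and 3 falls. *Elovl3*, an elongase of sebaceous glands, rose in both, from 8.98, 9.45 and 7.96 to 12.71, 12.58 and 12.57 in *Ahr*+/- skin (3.83) and from 8.82, 8.34 and 8.94 to 11.94, 11.39 and 11.20 in *Ahr*-/- skin (2.81). The very-long-chain elongases *Elovl7* (1.72) and *Elovl4* (1.5) rose in *Ahr*+/- skin. *Thrsp*, a lipogenic nuclear protein, read 11.61, 10.19 and 11.59 in untreated *Ahr*-/- skin and 6.10, 7.13 and 7.55 after IMQ, and fell by 4.20 (adjusted p = 0.000133), and was lower than in *Ahr*+/- skin on day 2 (-2.21, adjusted p = 0.0352). *Scd3* fell by 2.67 in *Ahr*-/- skin.

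Ceramide synthesis, the epidermal route that uses very long fatty acids, was read from 11 genes. Of these, 8 rose in *Ahr*+/- skin and 6 in *Ahr*-/- skin, 0 fell, and 0 differed between genotypes on day 2. *Degs2* rose by 3.41 and 3.53, *Cers3* by 2.00 and 1.22 and *Degs1* by 1.43 and 1.09 in *Ahr*+/- and *Ahr*-/- skin. Of 12 genes of fatty acid oxidation, 3 rose in *Ahr*+/- skin, *Ppard* (1.06), *Slc25a20* (0.74) and *Cpt2* (0.69). In *Ahr*-/- skin *Ppard* rose (1.55), while *Ehhadh* (-1.06), *Acadm* (-0.74) and *Ppara* (-0.69) fell, and the response of *Ehhadh* differed from that in *Ahr*+/- skin by -1.60 (adjusted p = 0.0419).

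Markers of cell types and states were read in the same arrays. Of 5 sebocyte markers, 3 rose in *Ahr*+/- skin (*Elovl3*, *Far2* 2.21, *Cidea* 1.42), and in *Ahr*-/- skin *Elovl3* rose and *Scd3* fell, both of which also stand in the fatty acid list above. The mean signal of the 5 was 8.46 to 9.19 and 10.02 to 10.27 in untreated and IMQ-treated *Ahr*+/- skin, and 8.44 to 9.59 and 8.90 to 9.38 in *Ahr*-/- skin. *Far2* was lower in *Ahr*-/- skin on day 2 (-1.67, adjusted p = 0.031). Of 9 adipocyte markers, *Lep* fell in *Ahr*+/- skin (-1.57), and *Adipoq* (-1.56), *Retn* (-0.78) and *Adig* (-0.66) fell in *Ahr*-/- skin. Their mean signal was 9.71 to 10.47 and 9.89 to 10.32 in untreated and treated *Ahr*+/- skin, and 10.22 to 10.87 and 10.10 to 10.32 in *Ahr*-/- skin.

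**Figure D4:**
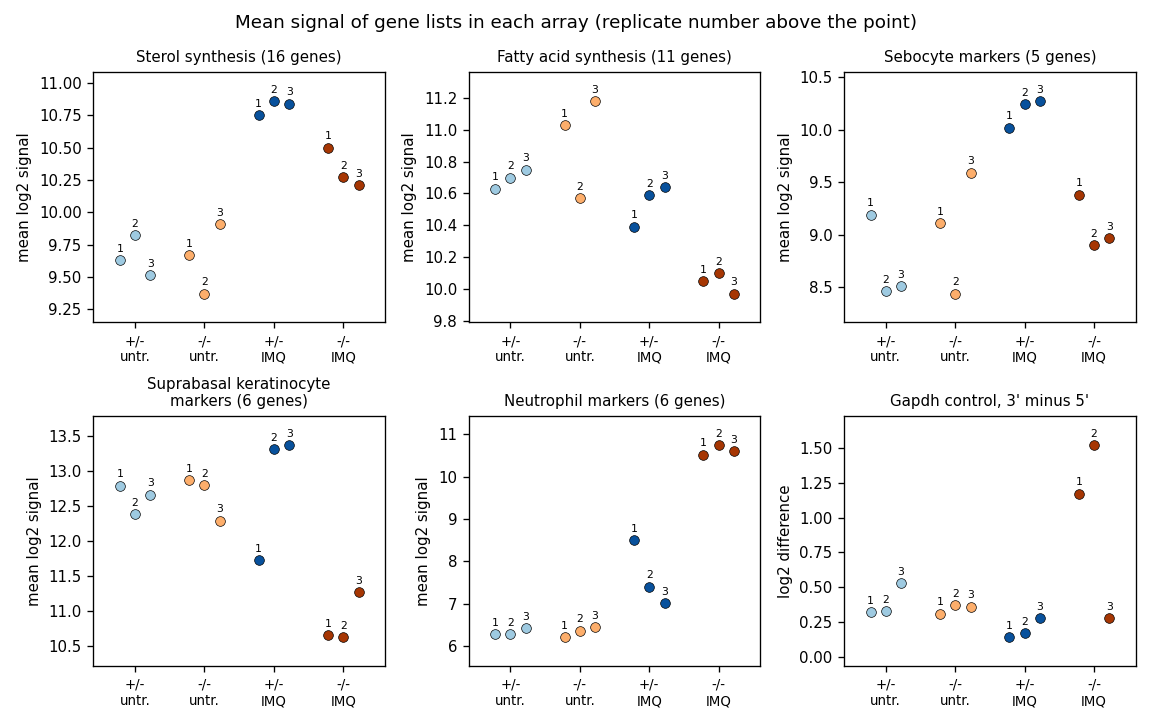
Mean log2 signal (vertical axis) of the sterol and fatty acid enzymes and of 3 marker lists in each array, by genotype and treatment, and the *Gapdh* 3' minus 5' difference; numbers are replicates. The sterol enzymes sat at 10.75 to 10.86 in *Ahr*+/- IMQ skin and at 10.21 to 10.50 in *Ahr*-/- IMQ skin, the fatty acid enzymes were lowest in *Ahr*-/- IMQ skin (9.97 to 10.10), and the *Gapdh* difference was high in 2 of those 3 arrays.

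Of 6 suprabasal keratinocyte markers, 0 passed in *Ahr*+/- skin and 4 fell in *Ahr*-/- skin, *Lor* (-3.58), *Krt10* (-3.47), *Flg* (-2.34) and *Krt1* (-1.47). Their mean signal was 11.72, 13.31 and 13.37 in *Ahr*+/- IMQ skin and 10.65, 10.62 and 11.27 in *Ahr*-/- IMQ skin, against 12.29 to 12.87 in the untreated arrays. *Ahr*+/- IMQ replicate 1, the low array, was also the highest of its group for neutrophil markers (8.50, against 7.4 and 7.01). All 6 neutrophil markers rose in *Ahr*-/- skin and 4 in *Ahr*+/- skin, and their mean signal was 6.2 to 6.44 untreated and 10.52 to 10.75 in *Ahr*-/- IMQ skin. Of 7 proliferation markers, 7 rose in *Ahr*-/- skin and 1 in *Ahr*+/- skin, where the untreated array with high hair follicle genes stood at 9.92 against 7.67 and 7.93. On day 2 their mean signal was 9.43 to 9.68 in *Ahr*+/- and 9.11 to 9.40 in *Ahr*-/- skin. All 7 were lower in *Ahr*-/- skin on day 2, and 0 passed. Basal keratinocyte markers were high throughout, as in skin, with a mean of 11.74 to 12.51. Of 6 basal markers, 3 rose and 1 fell in each genotype. Of 15 hair follicle growth genes, 6 fell in *Ahr*+/- skin, whose untreated replicate 2 was high, and 0 in *Ahr*-/- skin. Between the untreated genotypes these genes were lower in *Ahr*-/- skin, with a median difference of -3.06, and 0 passed. For 86.7% of them every untreated *Ahr*-/- array lay below every untreated *Ahr*+/- one, against 3.78% of all genes. Of 6 fibroblast markers, 2 fell in *Ahr*+/- skin, while *Ahr*-/- skin had 1 rise and 3 falls. Of 6 macrophage markers, 1 rose in *Ahr*+/- skin, while *Ahr*-/- skin had 1 rise and 1 fall, and of 6 skeletal muscle markers 3 fell in *Ahr*-/- skin. On this log2 scale no marker has a zero. The part of these cell types, of hair follicle growth and of the *Gapdh* difference in the results for the members was not tested beyond the values given.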

How the data were processed

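RNA of whole skin was hybridised to Affymetrix whole-genome mouse 3' expression arrays. The log2 signals were made and deposited by the authors with RMA in affy (versions not given in the sources used here), which corrects background, quantile-normalizes all arrays together and summarises probes; a change in most genes would thus be hidden. Of 45101 probe sets, 64 controls, 932 with several genes and 9160 with no symbol were left out, and 34945 remained for 18193 genes. Each gene was read from its probe set of highest mean signal. The 4 group means were fitted in 1 model with limma 3.58.1 (R 4.3.3; 8 residual degrees of freedom), unpaired, with Benjamini-Hochberg adjustment over all genes. Python 3.11.15 was used for summaries. The p-values set a difference of group means against the spread of these arrays within groups, which limma moderates over all genes. The fits were tested on simulated data.

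The members and lists were chosen with earlier results of these data known. Values in every array were given for *Srebf1*, *Srebf2*, *Insig1*, *Sqle*, *Acaca*, *Fasn* and *Scd1* and for the 5 largest called rises and falls of each comparison. Some or all called genes were named of the other pathway lists and of the sebocyte, adipocyte and suprabasal keratinocyte markers. The other markers were given as counts, some with mean signals, without naming the genes. *Elovl3* and *Thrsp* were given by array, and other members added, after their values were seen. Alternatives changed the threshold, probe set rule, filter, centring, variance model, arrays, replicate block, a *Gapdh* covariate and the test (rank product, 100 permutations).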

Additional observations from a re-analysis of the deposited data

Results flagged for a closer look

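The response to IMQ in *Ahr*-/- skin minus that in *Ahr*+/- skin differed from 0 by the limma interaction test for *Acss2* (-2.05), *Me1* (-1.72) and *Msmo1* (-1.39). *Acss2* and *Me1* were the members with the largest untreated differences between genotypes, both higher in *Ahr*-/- skin without passing the test. With the *Gapdh* 3' to 5' difference as a covariate the differences were -2.31, -1.72 and -1.17, and none of the 3 passed (adjusted p = 0.25, 0.28 and 0.369).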

How the results depend on the processing

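Of 1299 values of single members under alternatives, 1151 kept their side of the threshold, 141 no longer passed, 5 newly passed and 2 reversed. A change of sign without a call in either setting was counted as kept. Kept values include those of members never called, and the setting without a fold minimum could not end a call. The values covered the members called in a comparison, and *Srebf1*, *Srebf2*, *Insig1*, *Sqle*, *Acaca*, *Fasn* and *Scd1* in all comparisons. Calls newly gained by other members are not among them. The reversals came with the mean of all probe sets, *Scd1* in *Ahr*+/- skin (0.71, adjusted p = 0.0228) and *Sc5d* in *Ahr*-/- skin (-0.05, adjusted p = 0.807). For IMQ in *Ahr*+/- skin, 16 members rose and 0 fell, against 0 and 0 by rank product and 1 fall with a mean signal of at least 5. For IMQ in *Ahr*-/- skin, 11 rose and 7 fell, against 6 rises at an adjusted p under 0.01, 4 with the *Gapdh* covariate, 2 rises and 4 falls with *Ahr*-/- IMQ replicate 3 alone (chosen after seeing the data; 1 array assumed to vary like the other groups), and 0 and 0 by rank product. On day 2, 0 were higher and 6 lower, against 2 lower at an adjusted p under 0.01, 10 with only the groups compared, 0 with the *Gapdh* covariate, 0 with replicate 3 alone, 1 by rank product and 1 higher with array weights. For the difference in response, 0 were higher and 3 lower, against 0 lower at an adjusted p under 0.01, 6 with array weights, 0 with the *Gapdh* covariate and 0 with replicate 3 alone. Leaving out each array in turn gave 12 to 16 rises and 0 to 1 falls in *Ahr*+/- skin, 6 to 12 rises and 6 to 8 falls in *Ahr*-/- skin, 0 to 1 higher and 1 to 6 lower on day 2, and 0 to 1 higher and 0 to 5 lower responses. The causes were not tested. The rank product called 148 genes higher and 72 lower of all genes in *Ahr*+/- skin, and 191 and 168 in *Ahr*-/- skin. By limma these counts were 949 and 697, and 1928 and 2202. The null of the rank product permuted values over genes within each array, so the 2 tests do not share a threshold. Calls of the rank product were counted over the members and not given gene by gene, and it was not run for the difference in response.

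Deviations from the group means correlated with r from -0.18 to 0.32 over 18 pairs of same-numbered arrays, and -0.36 to 0.24 over 36 pairs of other number. With 3 arrays a group these correlations cannot exclude a pairing by number, and the labels do not state one. With the number as a replicate block, 15 members rose in *Ahr*+/- skin, 11 rose and 7 fell in *Ahr*-/- skin, 7 were lower on day 2 and 3 had a lower response.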
